A study of Mus musculus with 18 samples.

Results

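Hormone-sensing cells are the luminal cells of the mammary duct that carry the receptors for oestrogen, progesterone and prolactin. The cells described here numbered 1029 of 149371 barcodes in the 18 libraries of the series, and came from the postnatal day 5 gland and the pre-pubertal gland. They were picked by a rule on their own transcripts. A cell had to hold at least 500 detected genes and under 20% mitochondrial UMIs (unique molecular identifiers, each standing for 1 captured transcript). It had to hold more UMIs of the luminal keratins Krt8 and Krt18 than of the basal keratins Krt5 and Krt14. Finally, it had to hold at least 3 UMIs of Prlr, Cited1, Areg, Pgr, Esr1 and Foxa1 together, and more of these than of the luminal progenitor genes Kit, Elf5, Aldh1a3, Cd14 and Plet1. These 15 genes chose the cells, so their levels are a description and support nothing else.

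Both libraries came from C57BL/6 mice with no transgene named in the labels, collected at postnatal day 5 and before puberty (2.5 weeks in the labels), with the glands of several mice pooled into 1 library at each age. Cells were depleted of erythroid, endothelial and blood cells with antibodies to Ter119, CD31 and CD45, sorted on CD24 and CD29, and captured by droplet sequencing of transcript 3′ ends. The context libraries, put through the same rule, were mammary rudiments of E18.5 C57BL/6 embryos carrying Lgr5-GFP, terminal end buds (TEBs, the growing tips of pubertal ducts) and ducts of 5-week C57BL/6 Ecadherin-GFP females, glands of 10-week C57BL/6 virgins, and glands of 10-week FVB/NJ virgins in 3 libraries. With 1 library at each age there was no spread between animals to test against, so no p-value is given, and age, library and day of preparation cannot be told apart.

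The luminal layer of the duct holds hormone-sensing cells, called mature luminal cells in the study, beside luminal progenitors, the line from which milk-secreting alveoli arise. Oestrogen acts through Esr1, whose access to chromatin is opened by Foxa1, progesterone acts through Pgr, and prolactin acts through Prlr and the kinase Jak2 on the factors Stat5a and Stat5b. In the adult gland these cells divide rarely and pass the hormonal message to their neighbours by secreted factors such as Areg, Tnfsf11 and Wnt4. Before puberty the ovary is not yet cycling and the gland grows roughly in step with the body.

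At day 5, 498 of 953 luminal cells met the rule (52.3%, exact 95% binomial interval 49.0 to 55.5%). Before puberty 531 of 1207 did (44.0%, 41.2 to 46.8%). Luminal cells are all cells that passed the filters and the keratin order, and the counts rest on 3756 cells passing at day 5 and 4092 before puberty. The hormone-sensing cells were deeper than the other luminal cells, with a median of 11167 UMIs against 7976 at day 5 and of 15047 against 7684.5 before puberty. With every cell thinned at random to 3000 UMIs and the rule applied again, the shares were 46.2% (42.9 to 49.5%) and 41.9% (39.1 to 44.8%), and their intervals overlapped. All intervals here cover counting error only. In the 3 adult FVB/NJ libraries the share was 54.2% ± 1.29 (SD, n = 3) at full depth and 58.04% ± 3.13 after thinning. The 2 libraries of interest shared 2 cell barcodes.

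The share under the same rule was 5.55% at E18.5, 68.4% in TEBs, 48.7% in ducts and 66.9% in the adult C57BL/6 gland. The paper names a CD29-high, CD24-positive sort gate for the pre-pubertal cells and a CD24- and CD29-positive gate for TEBs and ducts. Luminal cells were 25.4% of cells passing at day 5, 29.5% before puberty, 88.7% in TEBs and 57.4% in ducts. The part of the gates in these shares was not tested. At E18.5, 102 of the 225 cells that passed held UMIs of Areg alone among the 6 hormone genes, and 21.9% kept the call after thinning. After birth, 85.0% of the day 5 cells and 92.6% of the pre-pubertal cells kept it, against 99.0% in the adult. At day 5, 7 hormone-sensing cells held exactly 3 hormone-gene UMIs, and before puberty 3 did. Of the luminal cells with more hormone than progenitor UMIs, 10 at day 5 and 1 before puberty held 2 hormone-gene UMIs and so lay just outside. The order of the 2 gene sets left out more cells, since 83 of the 455 other luminal cells at day 5 (18.2%) and 172 of 676 before puberty (25.4%) held 3 or more hormone-gene UMIs with at least as many progenitor UMIs.

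Single cells often held several of the 6 hormone genes. Their sum chose the cells and the counts that follow are at full depth, so they show no association between genes. At day 5, 198 cells held UMIs of 4 of the 6 genes, 61 held 5 and 5 held all 6, while before puberty these counts were 159, 248 and 63. Within the class at 3000 UMIs, Foxa1 was detected at day 5 in 50.8% of cells with Cited1 and 49.4% of cells without. Before puberty the shares were 54.6% and 36.0%. Both genes helped to choose the cells, so these shares show no association either. Other pairs before puberty went either way. Foxa1 was detected in 51.5% of cells with Esr1 and 47.02% without, and Cited1 in 66.4% of cells with Pgr and 70.7% without. The median cell held 23 hormone-gene UMIs at day 5 and 67 before puberty. At a fixed depth of 3000 UMIs the medians were 6 (10th to 90th percentile 2 to 11) and 12 (6 to 24), so the older cells held more also at equal depth. Prlr alone gave 54.0% of these UMIs at day 5 and 65.1% before puberty. The plot of luminal cells by hormone and progenitor UMIs shows this spread at both ages.

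**Figure D1:**
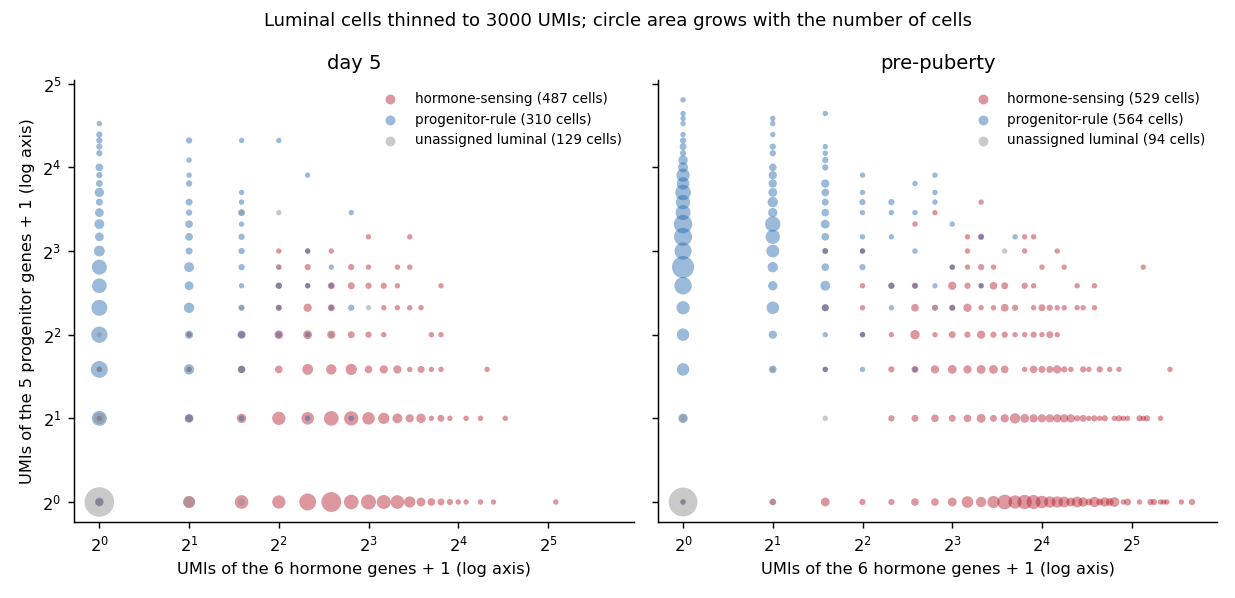
Luminal cells at day 5 (left) and before puberty (right), each thinned to 3000 UMIs, by UMIs of the 6 hormone genes plus 1 (x, log axis) and of the 5 progenitor genes plus 1 (y, log axis), with circle area growing with the number of cells. In a separate random thinning to 3000 UMIs, hormone-sensing cells (red) had a median of 6 hormone-gene UMIs at day 5 and 12 before puberty. In that thinning 65.2 and 56.9% of progenitor-rule cells (blue) had none, and the cells drawn here can differ somewhat from these values.

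Summed over all hormone-sensing cells of a library and scaled to CPM (counts per 1000000 UMIs of that sum), Prlr (ENSMUSG00000005268) stood at 1048 CPM at day 5 (exact 95% Poisson interval 1024 to 1072) and 2832 CPM before puberty (2798 to 2866). Esr1 (ENSMUSG00000019768), the oestrogen receptor, stood at 51.0 CPM (45.8 to 56.5) and 200.3 CPM (191 to 209). Foxa1 (ENSMUSG00000035451) was nearly level, at 251 CPM (240 to 263) and 265 CPM (254 to 275). Cited1 (ENSMUSG00000051159), a transcriptional co-activator that works with the oestrogen receptor, stood at 510 CPM (493 to 527) and 912 CPM (893 to 932). Prlr was thus 2.70-fold higher before puberty (95% interval 2.63 to 2.77), Esr1 3.93-fold (3.51 to 4.41) and Cited1 1.79-fold (1.72 to 1.86).

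The remaining hormone genes, Pgr and Areg, behaved otherwise. Pgr (ENSMUSG00000031870), the progesterone receptor, was low at day 5, with 47 UMIs over all 498 cells, or 6.67 CPM (4.90 to 8.87), below the 11.5 CPM (8.60 to 15.1) of the other luminal cells. Before puberty it stood at 111 CPM (104 to 117) against 12.5 CPM in the other luminal cells, a 16.6-fold difference between the ages (12.4 to 22.7). The pubertal and adult C57BL/6 levels, at 159 to 202 CPM, were above both. Areg (ENSMUSG00000029378), the epidermal growth factor family ligand that acts downstream of oestrogen in the pubertal duct, stood at 72.1 CPM (66.0 to 78.7) at day 5 and 33.5 CPM (29.96 to 37.4) before puberty, against 2581 CPM in TEBs, 1807 in ducts and 2172 in the adult gland. Esr1 stood at 50.6 CPM in TEBs, 40.6 in ducts and 54.9 in the adult C57BL/6 gland, below its 200.3 CPM before puberty.

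At a fixed 3000 UMIs, Prlr was detected in 90.3% of hormone-sensing cells at day 5 and 99.1% before puberty, Esr1 in 15.2% and 42.9%, Pgr in 1.44% and 27.03%, and Areg in 9.24% and 4.91%. Free RNA in the droplets sets a background for such shares. In basal-keratin cells, with more Krt5 and Krt14 than Krt8 and Krt18 UMIs, the thinned shares were 3.89% and 3.52% for Prlr, 1.10% and 0.628% for Esr1, 0.507% and 4.52% for Pgr, and 3.59% and 0.0837% for Areg. Fibroblast-marker cells at day 5 stood out for Prlr, with 30.5%. The interval of the day 5 share of Pgr in hormone-sensing cells (0.580 to 2.94%) overlapped those of basal-keratin cells (0.262 to 0.884%) and progenitor-rule cells (1.12 to 5.02%), so it was not told from background at this depth. The interval of the pre-pubertal share was 23.3 to 31.03%. Pgr helped to choose the cells, so these shares are a description. Basal-keratin cells had median depths of 10426 and 6989.5 UMIs before thinning.

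**Figure D2:**
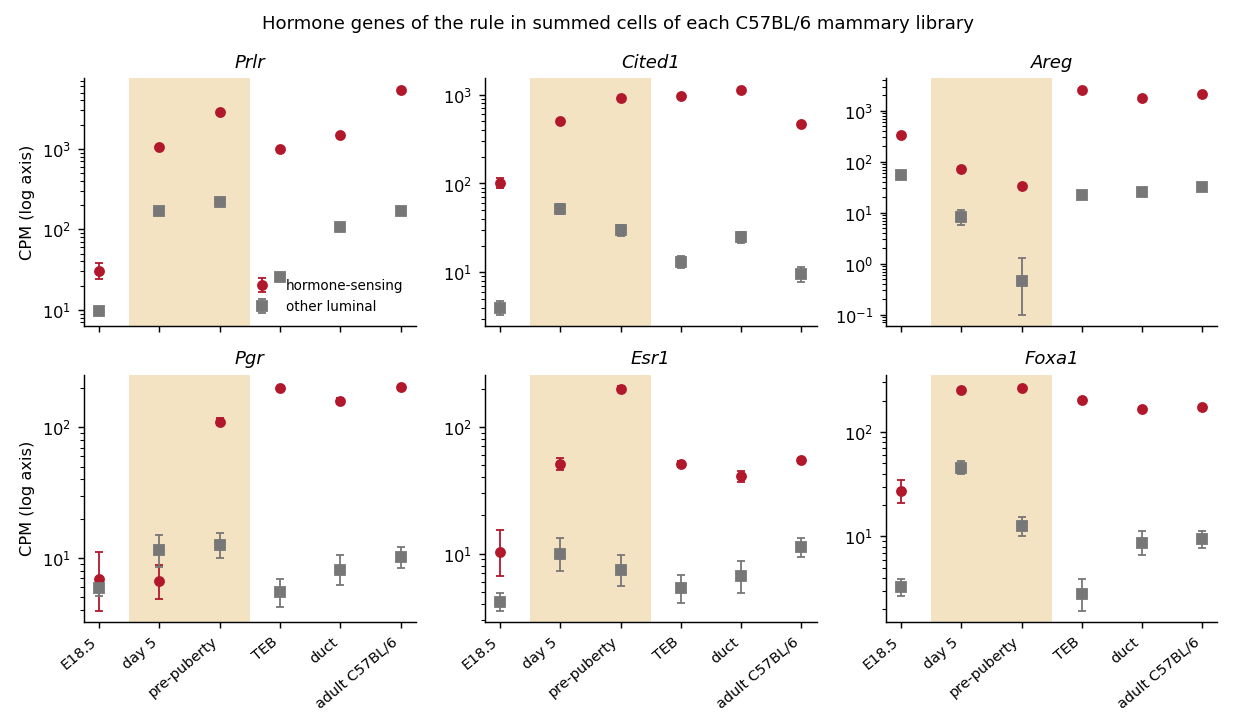
CPM (log axis) of the 6 hormone genes of the rule in summed hormone-sensing cells (red circles) and other luminal cells (grey squares) of 6 C57BL/6 mammary libraries, 1 library a stage, with exact 95% Poisson intervals and the 2 ages of interest shaded. Pgr went from 6.67 to 111 CPM between day 5 and pre-puberty, and Areg, at 72.1 and 33.5 CPM, lay far under its 1807 to 2581 CPM in the pubertal and adult libraries.

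Promoters of the 6 hormone genes were read from RefSeq (GRCm38.p6) to show what sequence lies before 3 of the genes that define the cells. All 6 genes matched, with 11 annotated promoters (250 bases before to 50 after a start). On both strands, the FOXA core TGTTTAC was found in 2 of the 11, the STAT5 palindrome TTCNNNGAA in 2, the palindromic oestrogen response element in 0 and the GATA core AGATAA in 0. Over all 32851 promoters the shares were 3.65%, 8.30%, 0.0700% and 11.2%. The 250 bases before the start that hold a match are given 5′ to 3′ on the gene's own strand, with the match in capitals.
Prlr, chr15:10223656-10223905, plus strand: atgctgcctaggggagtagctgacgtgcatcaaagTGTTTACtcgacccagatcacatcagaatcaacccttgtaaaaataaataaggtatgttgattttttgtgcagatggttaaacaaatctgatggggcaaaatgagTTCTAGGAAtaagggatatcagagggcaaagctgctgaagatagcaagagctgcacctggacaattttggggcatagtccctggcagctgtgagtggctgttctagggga
Esr1, chr10:4709908-4710157, plus strand: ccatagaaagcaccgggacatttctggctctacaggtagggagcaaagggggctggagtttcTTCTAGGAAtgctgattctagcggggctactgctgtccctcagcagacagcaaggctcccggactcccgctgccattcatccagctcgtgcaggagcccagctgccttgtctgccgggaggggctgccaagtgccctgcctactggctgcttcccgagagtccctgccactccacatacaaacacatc
Foxa1, chr12:57546112-57546361, minus strand: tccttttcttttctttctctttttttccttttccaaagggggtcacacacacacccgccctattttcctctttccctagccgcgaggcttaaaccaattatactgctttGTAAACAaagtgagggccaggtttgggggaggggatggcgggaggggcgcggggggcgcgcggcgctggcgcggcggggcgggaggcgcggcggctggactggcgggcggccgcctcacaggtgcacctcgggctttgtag
The Prlr promoter holds the FOXA core 215 to 209 bases and the palindrome TTCTAGGAA 110 to 102 bases before its start, Esr1 the same palindrome at 188 to 180 bases, and Foxa1 the FOXA core on its other strand, GTAAACA, at 141 to 135 bases. A match describes letters only, and a 3′-end assay does not show which of several starts was used. Among the 15 genes named below as higher in these cells at both ages, 10 matched a promoter entry, with the GATA core in 3 of 13 promoters, the STAT5 palindrome in 1 and neither other motif.

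To see whether the cells formed a group beyond the rule's own genes, neighbours were found from the rest of the transcriptome, with the 15 rule genes removed, cells thinned to 3000 UMIs and 10 principal components of 1000 variable genes. Of the 15 nearest luminal neighbours of a day 5 hormone-sensing cell, 87.5% were hormone-sensing on average, against 52.6% of all luminal cells used. Before puberty the values were 91.8% and 44.6%. Progenitor-rule cells, which hold at least 3 UMIs of the 5 progenitor genes and more of them than of the hormone genes, had 17.3% hormone-sensing neighbours at day 5 and 4.92% before puberty. Most neighbours were of the same class for 442 of 487 hormone-sensing cells at day 5 (90.8%) and 503 of 529 before puberty (95.1%). At E18.5 the cells passing the rule were not grouped, with 6.42% of neighbours against 6.04% of cells and 0 of 219 in a like majority.

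At day 5, 676 of 6292 genes differed at least 2-fold between the hormone-sensing and the other luminal cells (10.7%), of which 197 were higher (3.13%) and 479 lower (7.61%). Genes counted had at least 20 CPM in either sum, with the rule's own genes left out. Before puberty 937 of 6020 did (15.6%), 334 higher (5.55%) and 603 lower (10.0%). The median ratio over all counted genes was 0.957 at day 5 and 1.01 before puberty. Of the genes higher at day 5, 110 were also higher before puberty (55.8% of the day 5 genes and 32.9% of the pre-pubertal ones), and 269 were lower at both ages (56.2% and 44.6%). The other luminal cells held more basal transcripts, the 13 listed basal genes summing to 5255 CPM in them at day 5 and 2076 CPM before puberty, against 277 and 746 CPM in hormone-sensing cells. Of 11 basal genes counted, 10 were lower in hormone-sensing cells at each age, with median ratios of 0.0632 and 0.331. The progenitor-rule cells among the other luminal cells held less of this excess. At 3000 UMIs they averaged 1.97 basal UMIs at day 5 and 2.12 before puberty, against 0.680 and 2.33 in hormone-sensing cells. Their median was 1 UMI at each age, against 0. Before puberty the means were thus close. The part of basal transcripts in the other lower genes was not tested. With 1 library an age these are descriptions of the cells the rule chose, not tests.

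Of the 15 genes named as higher at both ages, Reg3g, an antibacterial lectin, stood at 25.4 CPM against 1.55 in the other luminal cells at day 5 (16.4-fold, 95% interval 7.80 to 41.4) and at 35.6 against 0.298 CPM before puberty (120-fold, 32.8 to 991), though lectins of its family share sequence. Upk3a, a uroplakin of the bladder lining, stood at 425 against 58.0 CPM (7.32-fold, 6.45 to 8.34) and at 421 against 48.7 CPM (8.65-fold, 7.73 to 9.72). Tspan1, a tetraspanin membrane protein, was 6.89-fold higher at day 5 (6.07 to 7.86) and 22.2-fold before puberty (17.9 to 27.9). Cldn10, a tight-junction claudin, was 5.53-fold (4.74 to 6.47) and 19.98-fold higher (15.5 to 26.2). Cxcl15, a secreted chemokine, stood at 31.9 and 28.4 CPM against 3.76 and 0.744 CPM, a ratio of 8.49 (5.19 to 14.8) and of 38.2 (16.2 to 119). Between the ages these 5 genes differed by less than 2-fold in the hormone-sensing cells, and the larger ratios before puberty went with lower levels in the other luminal cells.

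Other named genes were themselves higher before puberty. Nrxn3, a synaptic adhesion molecule, stood at 53.7 and 149 CPM, with ratios to the other luminal cells of 8.98 (6.07 to 13.8) and 29.4 (20.9 to 42.6). Gipc2, a PDZ-domain adaptor, stood at 39.5 and 154 CPM, and Col8a1, a short-chain collagen, at 31.7 and 178 CPM. Tmem56, a multipass membrane protein, stood at 149 and 306 CPM. The remaining named genes were Fgb, AW112010, Pir, Dnajc12, Cdo1 and Syt7, with ratios of 5.21 to 7.93 at day 5 and 8.50 to 47.7 before puberty. Fgb is a chain of fibrinogen and AW112010 a transcript first annotated as non-coding. All 15 were below 21 CPM in basal-keratin cells at both ages.

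Of 17 genes listed as marking the adult mature luminal cell, 11 were counted at day 5, and 9 of them were higher in the hormone-sensing cells, beside 3.13% of all genes, with a median ratio of 4.02 (members from 1.67 to 6.57) beside 0.957 over all genes. Before puberty 11 of 13 were higher, beside 5.55%, with a median of 14.4 (members from 1.29 to 81.0). The 2 medians are thus over different members. Here and in the other lists a gene is counted where either sum reaches 20 CPM, so it can enter through the class where it is high. Gpx3, Fxyd2, Ido1, Aoc1 and Tph1 were below 20 CPM in hormone-sensing cells at day 5. These counts are a description. Wfdc2, a secreted protease-inhibitor-like protein, stood at 1092 against 309 CPM at day 5 and at 1137 against 84.7 CPM before puberty. Prom1, the CD133 antigen used to sort these cells, was 4.59-fold higher (3.48 to 6.15) and 20.2-fold higher (13.4 to 32.2). Ly6a, the Sca1 antigen, was 2.70-fold (2.28 to 3.21) and 7.46-fold higher (6.47 to 8.64). Krt19 and Ly6d were not past 2-fold at either age, with ratios of 1.81 and 1.67 at day 5 and 1.29 and 1.94 before puberty.

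Some adult markers stood below their adult level at both ages. Gpx3, a secreted glutathione peroxidase, stood at 12.2 CPM at day 5 and 499 CPM before puberty, against 2231 CPM in the adult hormone-sensing cells. Fxyd2, a regulator of the sodium pump, stood at 16.2, 302 and 712 CPM. Ido1, which breaks down tryptophan, gave no UMI at day 5, 12.1 CPM before puberty and 183 CPM in the adult. Aoc1 and Tph1, the latter the enzyme of serotonin synthesis outside the brain, stood at 0.142 and 0.568 CPM at day 5 and at 0 and 0.104 CPM before puberty, against 334 and 60.7 CPM in the adult.

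**Figure D3:**
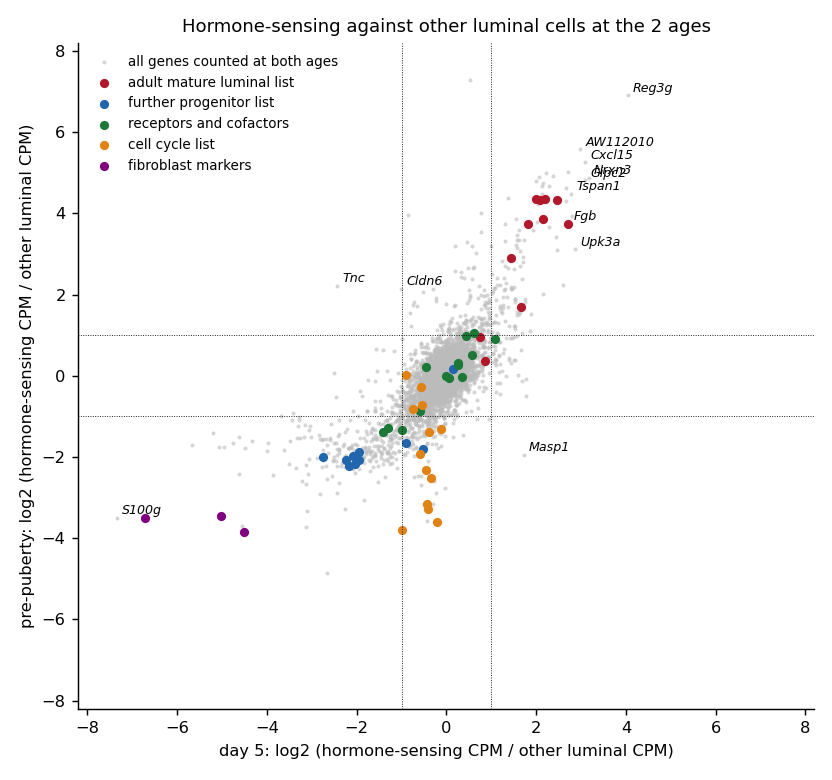
Log2 ratio of hormone-sensing to other luminal CPM at day 5 (x) and before puberty (y) for genes with at least 20 CPM in either sum at both ages, clipped at 8 on either side, with dotted lines at 2-fold and 5 gene lists coloured. Adult mature luminal genes lie to the upper right (median ratios 4.02 and 14.4), further progenitor genes to the lower left (0.252 and 0.254), and cell cycle genes near 0 at day 5 (0.709) and low before puberty (0.263). Each median is over the list genes counted at that age, not only those drawn.

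Of 17 lineage factors and receptor cofactors listed, 14 were counted at day 5, with 1 higher and 2 lower, and 15 before puberty, with 1 higher and 3 lower. Over all genes 10.7 and 15.6% were past 2-fold. The median ratios of the list were 1.11 and 1.16, beside 0.957 and 1.01 over all genes. Gata3, the factor needed for luminal fate, stood at 284 against 185 CPM at day 5 (1.53-fold, 1.41 to 1.66) and at 649 against 312 CPM before puberty (2.08-fold, 1.98 to 2.19). Tbx3, a T-box factor of the early mammary bud, stood at 57.8 against 42.9 CPM and at 156 against 79.1 CPM. Tfap2b was 2.13-fold higher at day 5 (1.92 to 2.36) and 1.87-fold before puberty (1.73 to 2.02). Igf1r, the receptor for insulin-like growth factor, was lower at both ages, with ratios of 0.376 and 0.383, and so was Tfap2c, at 0.407 and 0.411. In progenitor-rule cells Gata3 stood at 175 and 333 CPM at the 2 ages and in unassigned luminal cells at 212 and 128 CPM.

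Hormone-induced secreted signals were few. Stc2, a secreted glycoprotein, stood at 50.1 against 11.3 CPM at day 5 (4.44-fold, 3.30 to 6.08) and at 484 against 18.2 CPM before puberty (26.7-fold, 22.3 to 32.2). Wnt4, through which progesterone acts on neighbouring cells, stood at 43.6 against 38.1 CPM at day 5, a ratio of 1.15 (0.947 to 1.39) whose interval holds 1, and at 129 against 21.6 CPM before puberty (5.96-fold, 5.02 to 7.13). Basal-keratin cells at day 5 held 421 CPM of Wnt4, above any luminal class. Tnfsf11, the RANK ligand, gave 0 UMIs in 498 and in 531 hormone-sensing cells, and Calca gave 1 and 0. The floor set for a count of 0, 3 counts over the class, stood at 0.426 CPM at day 5 and 0.312 CPM before puberty. Of the 11 genes listed, 4 were counted at day 5, with 2 higher and 1 lower, beside 3.13 and 7.61% of all genes, and 3 before puberty, all 3 higher, beside 5.55%.

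Of 11 ligands and receptors of the epidermal growth factor family listed, 3 were counted at day 5, with 1 higher, and 6 before puberty, with 1 lower, where 10.7 and 15.6% of all genes were past 2-fold. Erbb2, a co-receptor, stood at 37.2 against 17.3 CPM at day 5 and at 34.4 against 26.4 CPM before puberty. Egfr, the receptor to which Areg binds, stood at 1.99 and 6.35 CPM in hormone-sensing cells against 40.7 and 71.4 CPM in basal-keratin cells. Tgfa, another ligand of that receptor, stood at 13.6 against 8.63 CPM and at 14.9 against 3.13 CPM.

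Of 11 genes listed for the prolactin signalling path, 7 were counted at day 5, with 1 lower than in other luminal cells, and 8 before puberty, with 1 higher, against the same 10.7 and 15.6% of all genes. Between the ages, 2 of 8 were higher and 2 lower before puberty in hormone-sensing cells, beside 16.9% of all genes past 2-fold in either direction. Stat5a stood at 15.2 against 17.0 CPM at day 5 (ratio 0.891, 0.659 to 1.21) and at 62.8 against 30.8 CPM before puberty (2.04, 1.74 to 2.40). Cish and Socs2, feedback inhibitors that Stat5 is known to induce, went the other way between the ages in hormone-sensing cells. Cish stood at 97.6 CPM at day 5 and 16.7 CPM before puberty, and Socs2 at 38.1 and 5.00 CPM. Both were also lower before puberty in the other luminal cells, at 71.7 and 26.1 CPM for Cish and 74.4 and 19.2 CPM for Socs2. In hormone-sensing cells Prlr and Stat5a were thus higher and Cish and Socs2 lower before puberty.

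Most luminal progenitor genes counted outside the rule were lower in hormone-sensing cells. Of 16 listed, 10 were counted at day 5 and 7 were lower, beside 7.61% of all genes, with a median ratio of 0.252. Before puberty 11 of 13 were lower, beside 10.0%, with a median of 0.254. Csn3, kappa-casein, stood at 586 against 2259 CPM at day 5 and at 637 against 2678 CPM before puberty. Wfdc18, a secreted whey-acidic-protein relative, stood at 690 against 2659 CPM and at 1310 against 4821 CPM. Lcn2, an iron-scavenging lipocalin, stood at 348 against 1639 CPM and at 851 against 3559 CPM. Sox9, known in progenitors and basal cells, was level, at 409 against 369 CPM and at 625 against 556 CPM.

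The progenitor transcripts within the class sat in some of its cells. At 3000 UMIs, Wfdc18 or Csn3 was detected in 148 of 487 hormone-sensing cells at day 5 (30.4%, 26.3 to 34.7%) and in 210 of 529 before puberty (39.7%, 35.5 to 44.0%). In basal-keratin cells the shares were 5.49% and 15.9%, in fibroblast-marker cells 2.12% and 2.34%, and in progenitor-rule cells 97.4% and 99.3%. Summed over the 16 listed genes, a hormone-sensing cell held a median of 2 UMIs at day 5 and 3 before puberty, with a 90th percentile of 15 and 29, against medians of 29 and 47.5 in progenitor-rule cells. Among hormone-sensing cells with no UMI of the rule's 5 progenitor genes at full depth, Wfdc18 or Csn3 was detected at 3000 UMIs in 4.82% of 83 and 8.99% of 89. This subset was itself chosen on progenitor genes, so its low shares are a description. Scrublet, which scores barcodes for 2 captured cells, marked 5 hormone-sensing cells at day 5 (1.004%) and 24 before puberty (4.52%). Without them the shares in the class were 30.3% and 40.2%. Without cells above the study's upper limits of genes and counts, the shares in the class were lower, at 28.8% of 476 and 35.7% of 490. Whether uncalled doublets part the class in this way was not tested.

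The genes named as lowest at both ages fell into different kinds by where they were expressed. Col1a1, Col1a2 and Col3a1, the fibrillar collagens, were 10.9- to 105-fold lower across the 2 ages. Their UMIs in the other luminal cells lay mostly in the unassigned luminal cells, 141 at day 5 and 103 before puberty, which met neither the hormone nor the progenitor rule. Col1a2 stood at 860 CPM in them at day 5, at 4.33 CPM in progenitor-rule cells and at 10.8 CPM in hormone-sensing cells. Before puberty Col3a1 stood at 2006 CPM in them, at 22.03 CPM in progenitor-rule cells and at 20.4 CPM in hormone-sensing cells. Pmp22, Matn2, Sparc, Postn and Fabp5 were likewise highest in the unassigned cells among the luminal classes. Against progenitor-rule cells alone, the log2 ratio of Sparc went from -4.62 to -0.43 at day 5 and from -2.42 to -0.21 before puberty, and that of Matn2 from -3.10 to -0.41 and from -3.32 to -0.26, all within 2-fold. Pmp22 was within 2-fold of progenitor-rule cells at day 5 (-0.88) and Postn just within it before puberty, while Fabp5 stayed past 2-fold lower at both ages. S100g, a vitamin D-dependent calcium-binding protein, was the exception, at 2 UMIs or 0.284 CPM in hormone-sensing cells at day 5 against 64.0 CPM in progenitor-rule cells, a ratio of 225 (61.6 to 1873), and at 8.85 against 110 CPM before puberty (12.4, 9.92 to 15.8).

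Against progenitor-rule cells alone, 201 genes were past 2-fold higher and 373 lower of 6197 counted at day 5. Before puberty 362 were higher and 503 lower of 5924 counted. The genes then lowest at both ages, picked after their values were seen, were led by S100g and went on with Ptx3, Ltf, Csn3, Lcn2, Apod, Col9a1, Tspan8, Mfge8, Gpc6, Wfdc18 and Cst3, which were 4.31- to 5.67-fold lower at day 5 and 4.02- to 5.11-fold lower before puberty. Ptx3, a soluble pattern-recognition protein, stood at 43.5 against 240.2 CPM at day 5. Apod, a lipid-binding apolipoprotein, stood at 56.5 against 266 CPM. Ltf, the iron-binding milk protein lactoferrin, stood at 9.66 against 54.7 CPM at day 5 and at 185 against 808 CPM before puberty.

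Between the 2 ages, 1044 of 6172 genes differed at least 2-fold in hormone-sensing cells (16.9%), 282 being higher before puberty (4.57%) and the others lower (12.3%), with a median ratio of 0.980 over all. In the other luminal cells 1444 of 6483 did (22.3%), with 393 higher (6.06%) and 1051 lower (16.2%). On log2(CPM + 1), 267 genes were past 2-fold higher in hormone-sensing cells, of which 121 were also higher in the other luminal cells (45.3%), 142 in basal-keratin cells (53.2%) and 79 in neither (29.6%). Of 738 lower genes, 581 were also lower in the other luminal cells (78.7%), 489 in basal-keratin cells (66.3%) and 97 in neither (13.1%). Across 5 equal bins of transcript GC content, 13.4 to 19.6% of all genes counted in basal-keratin cells were higher and 12.2 to 23.4% lower. Beside these, 6.06% and 16.2% of all genes counted in the other luminal cells were higher and lower. So most genes that differed between the ages in hormone-sensing cells differed the same way in another class, and age and library cannot be told apart in any of them.

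Of the genes named as higher before puberty, Hp, the haemoglobin-binding haptoglobin, stood at 28.3 CPM at day 5 and 489 CPM before puberty (17.3-fold, 15.01 to 20.03), against 7.08 and 17.7 CPM in the other luminal cells. Gpx3 was 40.9-fold higher (33.1 to 51.2) and Fxyd2 18.6-fold (15.4 to 22.7), against 5.57- and 0.989-fold in the other luminal cells. Dmbt1, a mucosal scavenger-receptor protein, rested on 5 UMIs at day 5 and stood at 126 CPM before puberty (178-fold, 76.1 to 549). Nrg4, a ligand of the receptor Erbb4, stood at 1.85 and 43.6 CPM, and Slc5a5, the iodide transporter of thyroid and lactating breast, at 0.852 and 48.6 CPM. Cyp2f2, a cytochrome, stood at 3.55 CPM at day 5 and 91.8 CPM before puberty but at 0.595 CPM in the adult C57BL/6 class.

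Rasgrf1, a Ras activator, stood at 0.426 and 33.8 CPM, and Snhg11, a long non-coding RNA, at 17.9 and 242 CPM. Cyp3a57 stood at 0.284 and 33.8 CPM, though its family shares sequence. The last named genes, Fcgbp, a mucus protein, and Ltf, were higher in all luminal cells. Fcgbp stood at 2.27 and 250 CPM in hormone-sensing cells and at 5.31 and 1003 CPM in the others, and Ltf at 9.66 and 185 CPM against 41.2 and 728 CPM. Both were thus lower in hormone-sensing cells at each age, as Csn3 and Lcn2 were.

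Of the genes named as higher at day 5, some marked the hormone-sensing cells at that age. Tesc, a calcium-binding protein, stood at 104 against 11.95 CPM in the other luminal cells at day 5 and at 1.46 CPM before puberty (71.5-fold, 42.3 to 131). Crabp1, which binds retinoic acid in the cytoplasm, stood at 156 against 25.01 CPM and then at 7.08 CPM (22.04-fold, 17.2 to 28.6). Cntn1, a neuronal adhesion molecule, stood at 35.2 against 5.75 CPM and then at 2 UMIs, or 0.208 CPM (169-fold, 46.3 to 1404). In the adult C57BL/6 class Crabp1 stood at 0.110 CPM and Cntn1 at 0.0220 CPM, whereas Tesc stood at 23.3 CPM. Ebf1 was different, being higher in the unassigned luminal cells, at 73.3 CPM against 22.01 CPM in hormone-sensing cells at day 5.

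Of 10 fetal growth regulators listed that are imprinted, 5 were counted between the ages in hormone-sensing cells, and 3 of them, Dlk1, Meg3 and H19, were lower before puberty, beside 12.3% of all genes, with a median ratio of 0.430. In the other luminal cells 5 of 7 were lower, beside 16.2%. Dlk1, a Notch-related inhibitor of differentiation, gave 346 UMIs or 49.1 CPM in hormone-sensing cells at day 5 and 0 UMIs before puberty, at least 157-fold lower against a floor of 3 counts over the class. Meg3, the non-coding RNA of the same locus, stood at 243 and 12.6 CPM (19.3-fold, 16.0 to 23.4). H19 stood at 80.1 and 34.5 CPM in hormone-sensing cells but at 146 and 2.23 CPM in the other luminal cells, so that its ratio between the classes went from 0.550 to 15.4. Igf2 gave 0 UMIs in the class at both ages.

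The other genes named as higher at day 5 were lower before puberty in every class. Scand1 stood at 96.4 and 1.15 CPM in hormone-sensing cells, a log2 difference on CPM plus 1 of -5.51, beside -5.82 in the other luminal, -5.14 in basal-keratin and -5.57 in fibroblast-marker cells. H1fx, a linker histone, gave -4.63, -4.99, -5.09 and -4.63, and Cebpb, a factor of secretory differentiation, gave -4.18, -4.26, -4.03 and -6.56. Zfp771 and Nrtn went the same way, as did Hist1h2ap, a histone of a near-identical gene family, with 205 and 0 UMIs. In the adult C57BL/6 class Scand1 stood at 136 CPM, Cebpb at 363 CPM and Zfp771 at 53.2 CPM, again above the pre-pubertal values. Among the 1234 genes of highest transcript GC content, 17.8% were lower before puberty in hormone-sensing cells, against 9.32 to 11.4% in the other 4 equal bins of GC content, and across 6168 genes the age ratio and GC content had a Pearson r of -0.0802. With log2 ratios centred within 20 bins of GC content, 1014 genes were past 2-fold between the ages. All 24 genes named between the ages stayed past it, but they were named for their extreme ratios in these same data. Dlk1 and Hist1h2ap, with 0 UMIs before puberty, could not come within 2-fold. The part of GC content in the named genes was not tested by this.

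**Figure D4:**
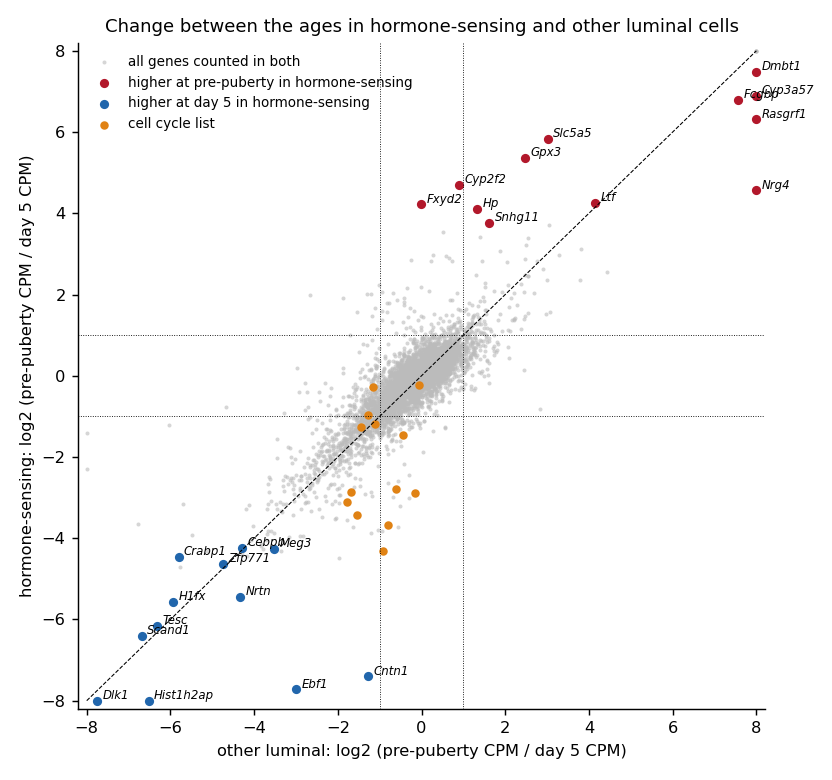
Log2 ratio of pre-pubertal to day 5 CPM in other luminal cells (x) and hormone-sensing cells (y), clipped at 8 on either side, with equality dashed and 2-fold dotted. Fxyd2 and Hp lie far above the dashed line (18.6- and 17.3-fold in hormone-sensing, 0.989- and 2.50-fold in other luminal cells), Dmbt1, Cyp3a57, Rasgrf1 and Nrg4 sit at the right edge because the other luminal cells held 0 UMIs of them at day 5, and most cell cycle genes (orange) lie below the line, with median ratios of 0.144 in hormone-sensing and 0.496 in other luminal cells.

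Cell cycle genes set the ages apart. Of 14 listed genes, 13 were counted between the ages in hormone-sensing cells and 10 were lower before puberty, beside 12.3% of all genes, with a median ratio of 0.144 beside 0.980 over all genes. Mki67 stood at 67.3 CPM (61.4 to 73.6) and 9.06 CPM (7.25 to 11.2), and Top2a, the topoisomerase of chromosome separation, at 99.1 CPM (91.9 to 107) and 14.3 CPM (11.97 to 16.9). At 3000 UMIs, Mki67 or Top2a was detected in 15.2% of hormone-sensing cells at day 5 (12.1 to 18.7%) and 3.59% before puberty (2.18 to 5.55%). At full depth the shares were 26.3% and 11.1%. Progenitor-rule cells gave 17.4% and 4.43% and basal-keratin cells 24.2% and 4.48% at 3000 UMIs, so both were also lower before puberty. The hormone-sensing share was 21.4% in TEBs, 10.3% in ducts and 0.984% in the adult C57BL/6 gland.

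Within each age, the intervals of hormone-sensing and progenitor-rule cells for the share with Mki67 or Top2a overlapped. At day 5 none of the 14 cell cycle genes was past 2-fold between hormone-sensing and other luminal cells (median 0.709), beside 10.7% of all genes. Before puberty 9 of 13 were lower (median 0.263), beside 10.0%, with Mki67 at 473 CPM in the unassigned cells, 36.3 CPM in progenitor-rule cells and 9.06 CPM in hormone-sensing cells. Of the unassigned cells, 14.0% held Mki67 or Top2a at 3000 UMIs at day 5 (8.48 to 21.2%) and 24.5% before puberty (16.2 to 34.4%). Cyclin D1, Ccnd1, which drives entry into the cycle, was level, at 530 and 567 CPM in hormone-sensing cells and 657 and 730 CPM in the others. Cdkn1b, an inhibitor of the cycle, stood at 33.2 and 49.4 CPM.

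**Figure D5:**
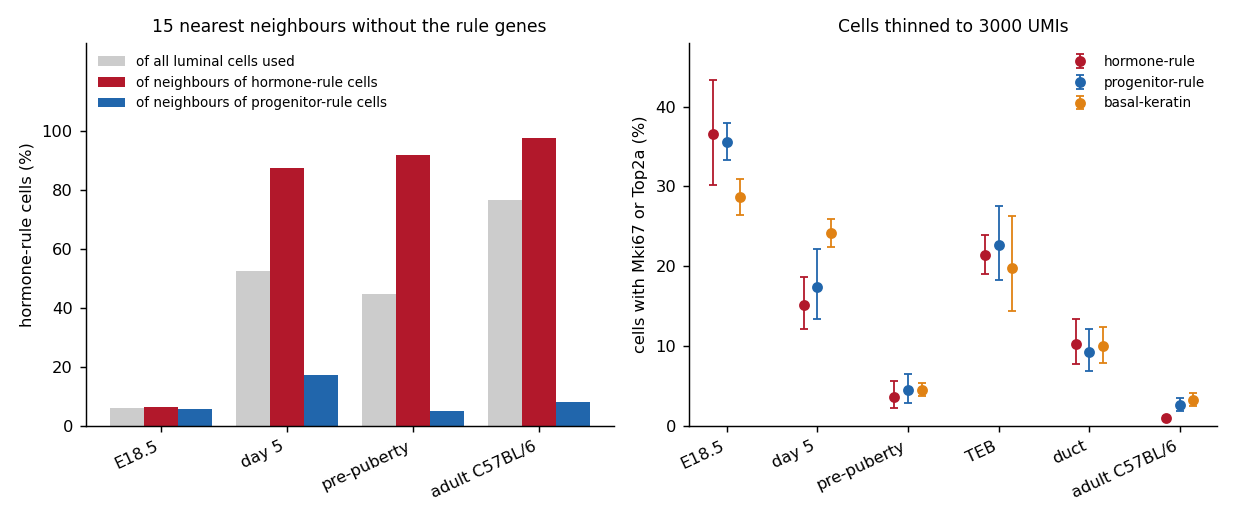
Left, percent of cells passing the hormone rule among all luminal cells used and among the 15 nearest neighbours of hormone-rule and progenitor-rule cells, in 4 C57BL/6 libraries, and right, percent of cells with Mki67 or Top2a at 3000 UMIs by class, with exact 95% binomial intervals, in 6 C57BL/6 libraries. The class stood apart from day 5 on (87.5 and 91.8% own neighbours), and its share with Mki67 or Top2a was 15.2% at day 5 and 3.59% before puberty.

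The 6 fibroblast markers summed to 35.1 and 39.5 CPM in hormone-sensing cells at day 5 and before puberty, against 989 and 414 CPM in the other luminal cells, and the 5 immune markers summed in hormone-sensing cells to 0.284 and 0.312 CPM, with Ptprc and Laptm5 at 0. Endothelial markers summed to 2.41 and 1.46 CPM, with Emcn at 0. Erythroid transcripts summed to 3.55 CPM at day 5 and 1662 CPM before puberty in hormone-sensing cells, to 1.11 and 12103 CPM in the other luminal cells and to 388 and 8035 CPM in basal-keratin cells. At 3000 UMIs before puberty, 78.6% of hormone-sensing, 78.5% of progenitor-rule and 81.0% of basal-keratin cells held no erythroid UMI. The means per cell were 3.68, 5.69 and 20.6 erythroid UMIs, so progenitor-rule cells lay nearer to hormone-sensing cells than the sum of the other luminal cells does. The 13 basal genes summed to 277 and 746 CPM in hormone-sensing cells, with 8 of the 10 counted higher before puberty, beside 4.57% of all genes, and to 6372 and 26540 CPM in basal-keratin cells. Their part in the differences between the ages was not tested. Suprabasal epidermal markers at day 5 summed to 59.2 CPM in hormone-sensing cells, 963 CPM in the other luminal cells and 5975 CPM in basal-keratin cells. Early response genes such as Fos and Egr1, which rise when tissue is dissociated, gave 0 of 11 past 2-fold between the classes at either age (10.7 and 15.6% of all genes). Their median ratio was 0.993 at day 5 and 0.697 before puberty, where members ran from 0.504 to 0.990. At 3000 UMIs before puberty, hormone-sensing cells held a median of 40 early response UMIs and progenitor-rule cells 74. Between the ages 5 of 11 were lower before puberty in hormone-sensing cells, beside 12.3%. The libraries held 42821531 and 39445446 UMIs in all.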

How the data were processed

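The authors mapped the reads of each droplet library to mm10 with Cell Ranger 3.1.0, per the submitters' processing notes, and deposited 1 matrix of UMI counts per library, with whole-number counts per gene and cell and no normalization. Of 18 libraries, 9 were used, and the other 9 matrices were not used here. Cells were classed by the stated rule, and counts were summed per class and library and scaled to CPM, since 1 library an age gives no replicate to test. Ratios carry exact conditional binomial intervals, CPM exact Poisson intervals and shares Clopper-Pearson intervals, all at 95% and for counting error only. Past 2-fold means a ratio of at least 2 or at most 0.5 among genes with 20 CPM or more in either sum, without the 15 rule genes.

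The class members and gene lists were chosen with earlier results of these data known. Genes named are the 15 with the highest and the 10 with the lowest ratio to other luminal cells at both ages, and the 12 highest and 12 lowest between the ages, each ranked by the interval bound nearest 1, and 1 of the 10 lowest is not reported here. Rule, mitochondrial, ribosomal protein, haemoglobin, Gm and Rik genes were left out of these ranks, and listed genes are given as examples. Fibroblast-marker cells hold 10 or more UMIs of the 6 fibroblast genes, no Epcam and at most 2 keratin UMIs. Doublets were scored with Scrublet and kept. Pipelines were tested on simulated data.

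Python 3.11.15, NumPy 2.4.6, SciPy 1.17.1, pandas 2.3.3, Scanpy 1.11.5, scikit-learn 1.9.0, matplotlib 3.10.9, R 4.3.3 and edgeR 4.0.16 (TMM scaling factors alone) were used. Alternatives covered the cell filters, class thresholds, thinning to 3000 UMIs, doublet removal, cells with cell cycle UMIs, scaling and the filter on low genes.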

Additional observations from a re-analysis of the deposited data

Results flagged for a closer look

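For 3 genes outside the rule the difference between hormone-sensing and other luminal cells was past 2-fold in opposite directions at the 2 ages, which was not tested because each age has 1 library. Tnc, the extracellular matrix protein tenascin-C, had a log2 ratio of -2.44 at day 5 (7.81 against 42.5 CPM) and of 2.22 before puberty (31.2 against 6.70 CPM), a change of 4.66. Cldn6, a tight-junction claudin of early epithelia, had a log2 ratio of -1.02 at day 5 (26.1 against 52.9 CPM) and of 2.14 before puberty (29.6 against 6.70 CPM), a change of 3.16. Masp1, a protease of the complement system, went the other way, with a log2 ratio of 1.72 at day 5 (25.6 against 7.75 CPM) and of -1.95 before puberty (14.4 against 55.4 CPM), a change of -3.67. For Cldn6 the level in hormone-sensing cells was close at the 2 ages and the other luminal cells differed, whereas Tnc differed in both classes.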

How the results depend on the processing

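The counts and shares were taken again under alternative settings, and a setting gave 1 value for each result it touched. Of these 62 values, 48 stayed within 1.5 times the count or within the interval of the share. With genes at 100 CPM or more the counts past 2-fold were 163 (day 5), 250 (pre-puberty) and 296 (between the ages), and with no filter on low genes they were 5568, 6243 and 6326. Without cells holding 2 or more UMIs of the 14 cell cycle genes, which removed most cells (83.1% and 75.9% of hormone-sensing cells, against 26.3% and 11.1% with Mki67 or Top2a) and left 84 of 189 and 128 of 337 luminal cells hormone-sensing, they were 1691 and 1533, and the shares were 44.4% and 38.0%. The day 5 share was 66.5% with at most 1 UMI of Krt5 and Krt14 and 46.2% after thinning, and the pre-pubertal share was 48.6% with Krt8 and Krt18 at 5 UMIs and Epcam at 1 or more. Without cells holding 3 or more UMIs of stromal or Schwann genes it was 49.7%. These shares without cells holding cell cycle, stromal or Schwann UMIs were added after seeing the data, as were settings that gave 574 to 680 genes at day 5, 865 to 1068 before puberty and 1014 between the ages. The log2 ratio turned positive for the fibrillar collagens. Against progenitor-rule cells alone it was 0.13 (Col1a1), 1.32 (Col1a2) and 2.46 (Col3a1) at day 5, and 0.57 (Col1a1) and 0.61 (Col1a2) before puberty. With the Krt8, Krt18 and Epcam filter it was 0.32 (Col1a2) and 1.33 (Col3a1) at day 5, and 0.51 (Col1a1) and 0.60 (Col1a2) before puberty. Without the stromal or Schwann cells it was 0.24 (Col1a2) at day 5 and 0.16 (Col3a1) before puberty. Of 912 values over 48 named genes, 888 stayed past 2-fold, and beside the collagens Sparc and Matn2 (both ages), Pmp22 (day 5) and Postn (pre-puberty) did not against progenitor-rule cells alone, nor Sparc and Matn2 with the Krt8, Krt18 and Epcam filter before puberty. Dlk1 and Hist1h2ap, at 0 before puberty, have no finite log2 ratio and are counted as past 2-fold in each setting between the ages. The 48 genes were ranked on these same data, so their staying past 2-fold is no support for them. No paired analysis was possible because each age has 1 library, and no replicate could be left out.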

Other observations

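Of all genes counted, 10.7% were past 2-fold between the classes at day 5 (7.61% lower) and 15.6% before puberty (10.0% lower). Of 12 Notch pathway genes, 7 were counted at day 5 with 1 lower in hormone-sensing cells (median ratio 0.986), and 5 before puberty with none past 2-fold (0.800). Of 11 Wnt pathway genes, 4 were counted at day 5 with 2 lower (0.472) and 5 before puberty with 2 lower (0.919). Of 8 genes listed as marking the embryonic rudiment, 6 were counted at day 5 with 2 lower, and between the ages 1 of 4 was lower in hormone-sensing cells (0.548), beside 12.3% of all genes, and 5 of 6 in the other luminal cells (0.317), beside 16.2%. Of 12 general luminal genes, 1 of 10 was higher at day 5 (1.04) and 1 of 11 before puberty (0.800), where 2 were lower.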
